A study of Danio rerio with 12 samples.

Results

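Integrins are the main receptors by which animal cells hold on to extracellular matrix and, in leukocytes, to other cells. The genes that encode their subunits were followed here in zebrafish embryos with 1 or 2 copies of a knock-in allele of etv2. That gene encodes an ETS transcription factor needed for the first endothelial cells. Members were the rows whose symbol begins with itga or itgb and goes on with a number or with l, m, v, x or e, leaving out itgb1bp and itgbl. This gave 34 rows among 31172, 22 for alpha and 12 for beta subunits. The row itga2 was equal in all 6 libraries of the 15-somite stage and was dropped there, which left 33.

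Each integrin is a pair of 1 alpha and 1 beta subunit, and the pair sets what is bound. In vertebrates, pairs with beta 1 bind collagens, laminins or fibronectin, alpha v pairs bind matrix proteins that carry an RGD motif, and beta 2 pairs are those of leukocytes. Talin and kindlin bind the tail of the beta subunit and switch the pair on, and further adaptors connect it to actin. Vessel assembly in vertebrate embryos depends on fibronectin and its alpha 5 and alpha v receptors, and platelets use the pair of alpha IIb and beta 3.

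The allele was etv2 Gt(2A-Gal4)ci32, a Gal4 cassette inserted at etv2, in a line that also carried the UAS:GFP reporter. Heterozygous and homozygous siblings from crosses between carriers were told apart by their GFP pattern, so the controls carried 1 copy of the insertion and no group lacked it. Embryos were frozen at the 15-somite stage, after incubation at 24 °C, or at 24 hpf (hours post fertilization), after incubation at 28 °C. Whole embryos were pooled, 15 to 20 per library, and there were 3 libraries per genotype and stage, 12 in all. Libraries are named het or hom with their replicate number. Among the 15-somite columns 2 homozygous ones carried the same name, so the homozygous libraries of that stage are named hom 2, a and b.

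The deposited values are log2 values relative to the median of the same gene in the same stage, so they hold no level that can be compared between genes or stages. A value is given below as a percentage of the heterozygous mean, that is, the geometric mean of the 3 heterozygous libraries at that stage, and a difference is the homozygous mean minus the heterozygous mean in log2 units with a standard error (SE). Differences were tested with limma over the 18423 rows of the 15-somite stage and 18970 rows of 24 hpf whose median lay at 16 normalized units or above. A gene is said to have risen or fallen where its adjusted p (Benjamini-Hochberg over all rows tested, two-sided) was below 0.05. Total depth is unknown. From steps between low values, 1 read was worth 0.881 to 1.1 normalized units in 15-somite libraries and 0.940 to 1.04 in those of 24 hpf.

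As a check of the labels, etv2 stood at 12.9% to 16.3% of the heterozygous mean in the 15-somite homozygous libraries and at 7.4% to 14% in those of 24 hpf (adjusted p = 0.000222 and 0.00239 by limma). Markers of endothelium, a list of 10 symbols, were lower as well. Of 9 tested, 9 fell at the earlier stage and 7 at the later, beside 3.73% and 0.343% of all genes tested. The mean over the list lay between -3.39 and -2.85 in the 15-somite homozygous libraries and between -2.11 and -1.76 in those of 24 hpf, as log2 values against the heterozygous mean. In whole embryos, fewer cells of a type and less RNA per cell cannot be told apart.

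Of the integrin genes, 29 were tested at each stage, 17 alpha and 12 beta, and 28 of them at both. Of these itga10 and ITGB2 fell at the 15-somite stage, 2 in all, and 0 rose, where 3.73% of all genes tested fell and 0.977% rose. At 24 hpf 2 fell, itga10 and ITGAE, and 0 rose, where 0.343% of all genes tested fell and 0.0474% rose. By an unadjusted p below 0.05, 2 were lower and 1 higher at the 15-somite stage, where 12.1% and 9.75% of all genes tested were. By the same measure 5 were lower and 0 higher at 24 hpf, where 4.05% and 3.18% of all genes tested were. The remaining 27 at each stage ranged from -0.56 to 0.83 and from -1.61 to 0.28. The median difference of the 29 genes was -0.03 and -0.05 at these stages, beside 0.0038 and 0.0008 over all genes tested.

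**Figure D1:**
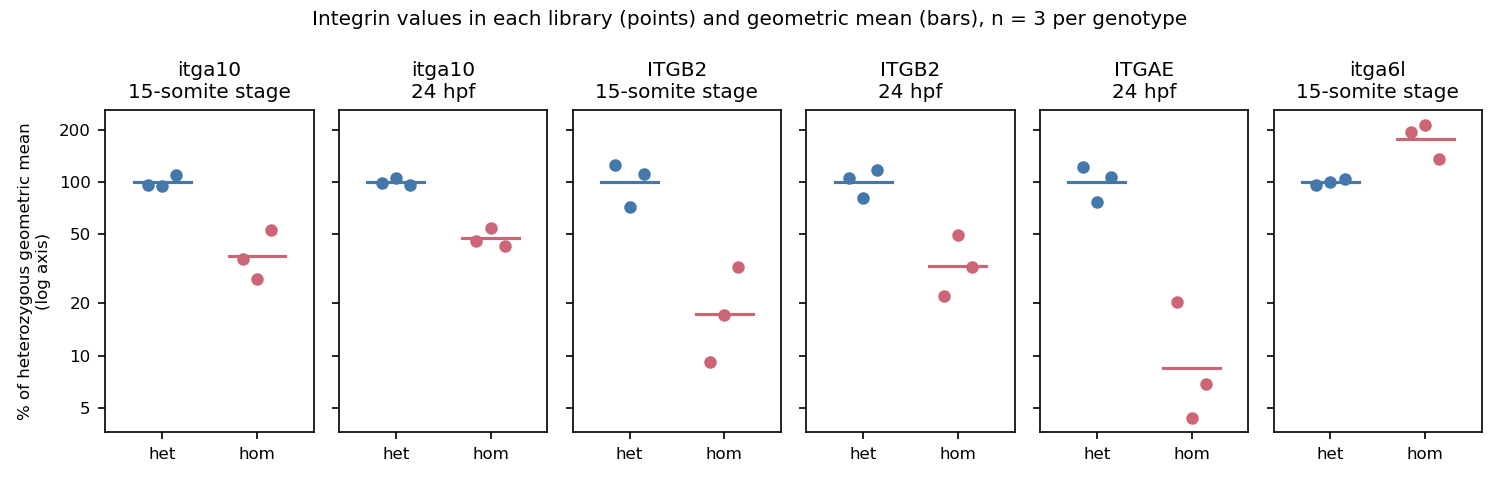
Each point is 1 library, given as a percentage of the heterozygous mean at that stage on a log axis, for the 3 integrin genes that fell and for itga6l; bars are geometric means of the 3 libraries of a genotype. Homozygous libraries lie below all heterozygous ones for itga10 and ITGB2 at both stages and for ITGAE at 24 hpf, and above them for itga6l at the 15-somite stage.

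The gene itga10 (ENSDARG00000002507) encodes alpha 10, a collagen-binding subunit that pairs with beta 1 and is known in mammals from cartilage. In the 15-somite libraries it stood at 96.3%, 94.5% and 110% in het 1, 2 and 3, and at 36.2%, 27.6% and 52.7% in hom 2, a and b. The 24 hpf values were 99.1%, 105% and 95.9% in het 1, 2 and 3, and 45.8%, 54.6% and 43.0% in hom 1, 2 and 3. Every homozygous library thus lay below every heterozygous one at both stages, with the widest homozygous spread at the 15-somite stage. Its difference was -1.42 at the 15-somite stage (SE 0.21, adjusted p = 0.0167), a 2.67-fold fall, and -1.07 at 24 hpf (SE 0.09, adjusted p = 0.00597), a 2.1-fold fall. Without het 2 or het 3 the 15-somite adjusted p was 0.0672 and 0.0561, and with 1 prior spread for all genes it was 0.0536, whereas the 24 hpf fall passed without each library in turn (adjusted p 0.00315 to 0.0495).

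By symbol, 28 of the 34 members were found in the RefSeq annotation of assembly GRCz12tu, which was used only for names and neighbourhood. Among those found, itga10 and itga8 lie on the chromosome of etv2, neither within 5 Mb of it. The rows ITGAE, ITGAL, ITGAM, itga2, ITGA2 (1 of 2) and ITGA2 (2 of 2) were not found by symbol, so their place relative to etv2 was not read. By symbol, 13825 of the genes tested at the 15-somite stage and 14251 of those at 24 hpf were found. Of those on that chromosome, etv2 included, 7.89% fell at the 15-somite stage (51 genes) and 0.919% at 24 hpf (6 genes). Of those found elsewhere 4.20% and 0.382% fell, and of all genes tested 3.73% and 0.343%. What linkage to the insertion contributes to the fall of itga10 was not tested. The alpha 8 gene itga8, which pairs with beta 1 in mammals, stood at -0.03 (SE 0.20) and 0.01 (SE 0.18).

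The other collagen-binding alpha subunits, which also pair with beta 1, did not pass at either stage. The alpha 1 gene itga1 stood at -0.41 (SE 0.30, adjusted p = 0.470) at the 15-somite stage and at -0.22 (SE 0.10, adjusted p = 0.712) at 24 hpf. The alpha 11 gene itga11a stood at 0.01 (SE 0.27) and 0.14 (SE 0.19), and ITGA2 (1 of 2), 1 of several alpha 2 rows, at -0.03 (SE 0.39) and 0.07 (SE 0.23). Collagen receptor alpha genes thus divided into itga10, which fell at both stages, and others whose libraries overlapped between the genotypes. The differences between these genes were not themselves tested.

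The gene ITGB2 (ENSDARG00000016939) encodes beta 2, the shared beta subunit of the leukocyte integrins. Its 15-somite values were 125%, 71.7% and 111% in het 1, 2 and 3, and 9.20%, 17.2% and 32.5% in hom 2, a and b. Its 24 hpf values were 105%, 80.6% and 118% in het 1, 2 and 3, and 21.9%, 49.3% and 32.6% in hom 1, 2 and 3. The genotypes were separate at both stages. Its difference at the 15-somite stage was -2.53 (SE 0.45, adjusted p = 0.0257), a 5.79-fold fall. Without het 1, het 2, het 3 or hom a the adjusted p of that fall was 0.0647 to 0.0873, and with 1 prior spread for all genes it was 0.0664. At 24 hpf the difference was -1.61 (SE 0.31, 95% interval -2.33 to -0.89) and did not pass (adjusted p = 0.15).

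The rows named as its alpha partners did not pass at either stage. The row ITGAL is taken as the gene of alpha L from its deposited symbol only, as no current symbol was found for it. At 24 hpf ITGAL lay in the highest level class and ITGB2 in the class below. At the 15-somite stage both lay in the same class. Whether ITGAL encodes the partner of beta 2 was not tested. It stood at 68.9%, 124% and 117% in the 15-somite heterozygous libraries and at 133%, 128% and 143% in hom 2, a and b, all above the heterozygous ones (difference 0.43, SE 0.25, adjusted p = 0.374). Its 24 hpf values were 95.8%, 109% and 95.6% in het 1 to het 3 and 98.4%, 76.4% and 71.3% in hom 1 to hom 3, which overlap (difference -0.30, SE 0.12, adjusted p = 0.682). Of all members ITGAL had the lowest unadjusted p for a difference between stages, with -0.73 (SE 0.31, unadjusted p = 0.0347), and it did not pass (adjusted p = 0.221). ITGAM, the gene of alpha M, was spread widely in the heterozygous libraries of the 15-somite stage, at 79.4%, 67.6% and 186%, beside 60.6%, 56.4% and 91.8% in hom 2, a and b (difference -0.56, SE 0.40, adjusted p = 0.465). The 24 hpf libraries stood at 116%, 67.7% and 127% in het 1 to het 3 and at 143%, 71.1% and 81.8% in hom 1 to hom 3 (difference -0.09, SE 0.34, adjusted p = 0.979), so the genotypes overlapped at both stages.

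The gene ITGAE (ENSDARG00000057787) encodes alpha E, which in mammals pairs with beta 7 and binds E-cadherin on epithelial cells. It stood at 122%, 76.4% and 107% in het 1, 2 and 3 of 24 hpf, and at 20.3%, 4.39% and 6.86% in hom 1, 2 and 3. The genotypes were separate, and the highest homozygous library still lay well under the lowest heterozygous one. The difference was -3.56 (SE 0.52, adjusted p = 0.0475), an 11.8-fold fall. That call rested on a narrow margin: without het 1, het 2, het 3, hom 2 or hom 3 the adjusted p was 0.0993 to 0.207, and without hom 1 it was 0.00448. It also did not pass without the filter on level (0.0549), with the level class read from values at or above the row median alone (0.0706) or with 1 prior spread for all genes (0.168). Its place among the rows tested at all comes from that level class. The size is uncertain, since the homozygous values may lie near the floor. ITGAE was too low to test at the 15-somite stage: het 2 and het 3 stood at 11.6 and 8.30 normalized units, and het 1 and all 3 homozygous libraries were listed at the floor of 1 unit. The current symbol of this row is itgae.2, so there may be another copy, and reads may be split between copies.

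ITGB7, the gene of beta 7, did not pass at either stage. It stood at 76.4%, 119% and 110% in the 15-somite heterozygous libraries and at 115%, 62.0% and 98.7% in hom 2, a and b (difference -0.17, SE 0.29, adjusted p = 0.768). By 24 hpf the values were 110%, 95.9% and 94.6% in het 1 to het 3 and 97.0%, 102% and 135% in hom 1 to hom 3, again overlapping (difference 0.14, SE 0.18, adjusted p = 0.932). ITGA4, the gene of alpha 4, which pairs with beta 1 or beta 7 and binds VCAM-1 and fibronectin in mammals, had separate genotypes at 24 hpf. It stood at 100.1%, 99.7% and 100.2% in het 1 to het 3 and at 115%, 127% and 123% in hom 1 to hom 3 (difference 0.28, SE 0.14, adjusted p = 0.761). Its 15-somite libraries overlapped, with 84.6%, 101% and 117% in the heterozygous and 78.9%, 105% and 96.2% in hom 2, a and b (difference -0.11, SE 0.20, adjusted p = 0.792).

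Markers of leukocytes, read as rows of 11 listed symbols, were lower at 24 hpf, as ITGB2 and ITGAE were. Of 10 rows tested there, 3 of them copies of mfap4, 4 fell, beside 0.343% of all genes tested. All 10 lay below 0, as did 9424 of the 18970 genes tested. The list mean lay between -3.34 and -2.50 in the homozygous libraries and between -0.16 and 0.21 in the heterozygous ones. Of 6 tested at the 15-somite stage 0 fell, beside 3.73% of all genes tested. By an unadjusted p below 0.05, 4 were lower, beside 12.1% of all genes tested. These were coro1a (-1.67, SE 0.52), irf8 (-1.01, SE 0.42), spi1 (-0.54, SE 0.22) and lcp1 (-0.38, SE 0.14). The other 2, ptprc (0.39, SE 0.39) and mpx (0.25, SE 0.99), lay above 0. The list mean lay between -0.56 and -0.45 in the homozygous libraries and between -0.23 and 0.40 in the heterozygous ones. Homozygous libraries thus lay below all heterozygous ones in the mean of this list at both stages. At 24 hpf ITGAL, named from its deposited symbol only, stood at -0.30, ITGAM at -0.09, ITGB7 at 0.14 and ITGA4 at 0.28. ITGB2 stood at -2.53 at the 15-somite stage and at -1.61 at 24 hpf, where it did not pass. The macrophage markers mpeg1 and mfap4 lay below the level tested at the 15-somite stage. Their rows were in the lowest level class, except MFAP4 (11 of 13) and MFAP4 (13 of 13) in the next. Untested, mpeg1 stood at -3.87 at that stage, with all homozygous libraries below the heterozygous ones. MPEG1 (2 of 3) and MPEG1 (3 of 3) stood at 1.44 and -1.14 and overlapped. The mfap4 rows ranged from -2.32 in MFAP4 (13 of 13) to 0.70 in MFAP4 (4 of 13). At 24 hpf mpeg1 lay in the lowest class too. The part of leukocyte number in the values of ITGB2 and ITGAE, and that of endothelial number in those of itga10, was not tested.

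**Figure D2:**
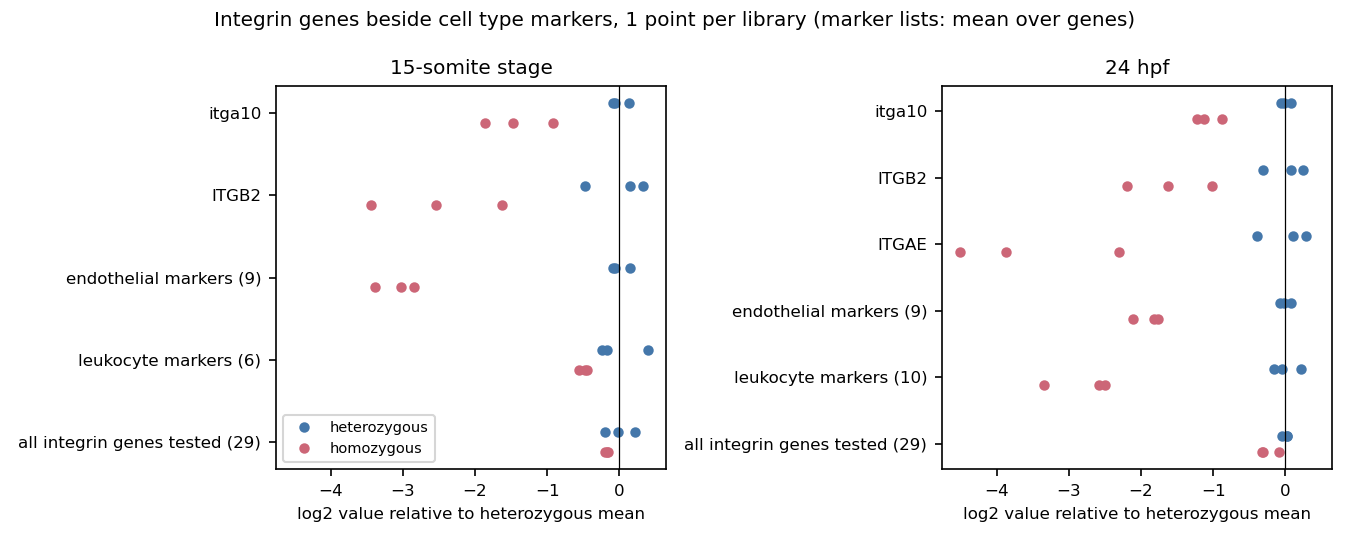
Points are single libraries, as log2 values relative to the heterozygous mean of the stage, for the integrin genes that fell, for the mean over endothelial and leukocyte marker genes (number tested in brackets) and for the mean over the 29 integrin genes tested. ITGAE is shown at 24 hpf only, as it was too low to test at the 15-somite stage; the mean over all 29 lies between -0.20 and 0.22 at the 15-somite stage.

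No receptor subunit of fibronectin and other RGD proteins, the group best known from vessel assembly, passed at either stage. All values are of whole embryos, so a change in endothelial cells alone was not measured. The gene itga5, of the fibronectin receptor subunit alpha 5, stood at 88.2%, 104% and 109% in the 15-somite heterozygous libraries and at 91.7%, 90.0% and 77.2% in hom 2, a and b (difference -0.22, SE 0.11, 95% interval -0.47 to 0.03, adjusted p = 0.289). The 24 hpf values were 95.4%, 97.5% and 108% in het 1 to het 3 and 96.8%, 95.2% and 93.7% in hom 1 to hom 3 (difference -0.07, SE 0.06, 95% interval -0.21 to 0.07, adjusted p = 0.876). The genotypes of itga5 overlapped at both stages, and both intervals lay inside a 2-fold change in either direction.

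The alpha v gene itgav overlapped between genotypes at both stages as well. It stood at 87.4%, 102% and 112% in the 15-somite heterozygous libraries and at 85.1%, 103% and 85.6% in hom 2, a and b (difference -0.14, SE 0.12, adjusted p = 0.530). Its 24 hpf values were 101%, 97.1% and 101% in het 1 to het 3 and 123%, 106% and 99.98% in hom 1 to hom 3 (difference 0.13, SE 0.08, adjusted p = 0.822). The alpha 9 gene itga9, a receptor of tenascin and VCAM-1 that acts in lymphatic valves in mammals, was spread more widely. It stood at 92.2%, 78.7% and 138% in the 15-somite heterozygous libraries and at 99.9%, 121% and 84.3% in hom 2, a and b (difference 0.01, SE 0.26, adjusted p = 0.988). Values at 24 hpf were 101%, 121% and 81.8% in het 1 to het 3 and 94.8%, 51.9% and 72.4% in hom 1 to hom 3, which overlap (difference -0.50, SE 0.26, adjusted p = 0.765).

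Beta 1, the most shared beta subunit, is encoded by several zebrafish genes. The row itgb1a stood at 87.7%, 99.1% and 115% in the 15-somite heterozygous libraries and at 108%, 115% and 102% in hom 2, a and b (difference 0.11, SE 0.11, adjusted p = 0.586). Its genotypes overlapped at 24 hpf too, with 104%, 98.8% and 97.3% in het 1 to het 3 and 121%, 99.9% and 104% in hom 1 to hom 3 (difference 0.11, SE 0.08, adjusted p = 0.844). The paralogue itgb1b stood at 83.1%, 103% and 117% in the 15-somite heterozygous libraries and at 98.9%, 103% and 95.4% in hom 2, a and b (difference -0.01, SE 0.12, adjusted p = 0.968). It overlapped at 24 hpf as well, with 97.8%, 104% and 98.3% in het 1 to het 3 and 112%, 94.9% and 98.0% in hom 1 to hom 3 (difference 0.02, SE 0.07, adjusted p = 0.978). The rows itgb1b.1 and itgb1b.2, neighbours of itgb1b in the RefSeq annotation that could share reads with it, stood at -0.36 (SE 0.17) and -0.42 (SE 0.24) at the 15-somite stage and at 0.08 (SE 0.13) and 0.09 (SE 0.14) at 24 hpf. None of these rows passed.

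Beta 3 genes, whose product pairs with alpha v in endothelium and with alpha IIb in platelets, did not pass. The row itgb3a stood at 93.8%, 99.3% and 107% in the 15-somite heterozygous libraries and at 63.1%, 78.9% and 112% in hom 2, a and b (difference -0.28, SE 0.24, adjusted p = 0.543). Its 24 hpf values were 92.8%, 102% and 105% in het 1 to het 3 and 85.6%, 93.4% and 88.6% in hom 1 to hom 3 (difference -0.17, SE 0.07, adjusted p = 0.672). The 24 hpf genotypes of itgb3a touched, as hom 2 lay just above het 1. The copy itgb3b overlapped at both stages. It stood at 65.7%, 114% and 133% in the 15-somite heterozygous libraries and at 120%, 82.7% and 76.6% in hom 2, a and b (difference -0.13, SE 0.31, adjusted p = 0.838), and at 83.7%, 117% and 102% in het 1 to het 3 of 24 hpf and 163%, 108% and 81.1% in hom 1 to hom 3 (difference 0.17, SE 0.27, adjusted p = 0.949).

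The alpha IIb gene itga2b, the marker CD41 of zebrafish thrombocytes and early blood stem cells, was too low to test. In the 15-somite libraries hom 2 and hom b stood at 2.64 and 2.11 normalized units and the other 4 libraries at the floor of 1. At 24 hpf het 3, hom 1 and hom 3 stood at 2.07, 2.05 and 2.00 units and the other 3 libraries at the floor. These are values of a few reads in both genotypes. Of 9 thrombocyte markers listed, itga2b among them, 5 were tested at each stage and 0 passed. Of all genes tested 3.73% fell and 0.977% rose at the 15-somite stage, and 0.343% and 0.0474% at 24 hpf. All 5 overlapped between the genotypes. Over all genes tested, 15.7% were separate and lower and 13.5% separate and higher at the 15-somite stage. At 24 hpf these shares were 6.52% and 6.34%. At the 15-somite stage gp1bb, f5, zfpm1, thbs1b and nfe2 were tested, and mpl, GP9 and GP1BA were too low, as itga2b was. Of those tested, thbs1b is also on the list of integrin ligands read below. Thrombocyte number was not tested.

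The other beta subunits of RGD receptors did not pass. The beta 5 gene itgb5 stood at -0.01 (SE 0.08) at the 15-somite stage and -0.11 (SE 0.06) at 24 hpf, and the beta 6 gene itgb6 at 0.08 (SE 0.10) and -0.12 (SE 0.13). The beta 8 gene itgb8, whose product pairs with alpha v and activates latent TGF-beta in mammals, had separate genotypes at the 15-somite stage, with homozygous libraries at 119% to 134% and heterozygous ones at 90.0% to 106% (difference 0.33, SE 0.17, adjusted p = 0.314). At 24 hpf its libraries overlapped (difference -0.21, SE 0.21, adjusted p = 0.903).

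Among laminin receptors the highest difference was that of itga6l, named for its likeness to alpha 6, at the 15-somite stage. It stood at 96.7%, 99.5% and 104% in het 1, 2 and 3 and at 193%, 213% and 136% in hom 2, a and b, so that all homozygous libraries were higher. The difference of 0.83 (SE 0.21, 95% interval 0.33 to 1.32, 1.77-fold) did not pass (adjusted p = 0.0749). At 24 hpf its row lay below the level tested, with libraries from 26.1% to 230% in the heterozygous and from 27.1% to 166% in the homozygous group. The alpha 6 gene itga6a also had separate genotypes at the 15-somite stage, by a small margin, at 99.0% to 101% in the heterozygous and 106% to 112% in the homozygous libraries (difference 0.11, SE 0.06, adjusted p = 0.314), and stood at -0.01 (SE 0.06) at 24 hpf.

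The remaining laminin receptor genes overlapped between genotypes at both stages. The alpha 6 copy itga6b stood at -0.05 (SE 0.08) and -0.05 (SE 0.05), and the alpha 3 genes itga3a and itga3b stood at 0.01 (SE 0.23) and 0.01 (SE 0.08) at the 15-somite stage and at -0.15 (SE 0.17) and 0.05 (SE 0.08) at 24 hpf. The alpha 7 gene itga7, which anchors muscle fibres at their ends, stood at -0.10 (SE 0.34) and -0.10 (SE 0.07). The beta 4 gene itgb4, of epidermal hemidesmosomes, stood at 0.07 (SE 0.12) and 0.01 (SE 0.05).

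**Figure D3:**
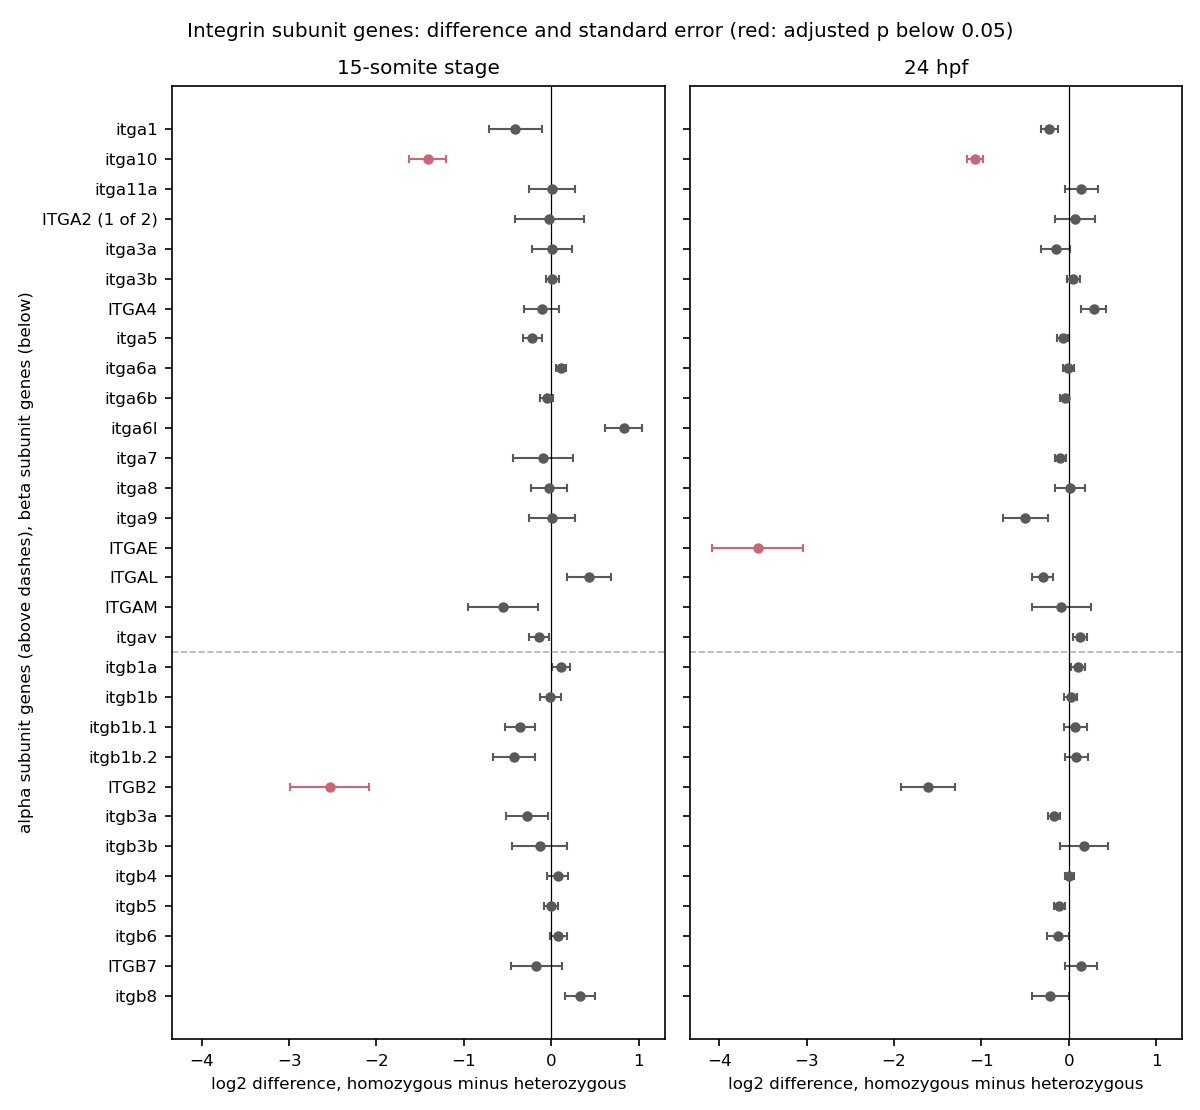
Points show the log2 difference, homozygous minus heterozygous, of each integrin gene tested, and bars its standard error, with alpha subunits above the dashed line and beta subunits under it. Red points passed the adjusted p of 0.05: itga10 and ITGB2 at the 15-somite stage, itga10 and ITGAE at 24 hpf; ITGAE at the 15-somite stage and itga6l at 24 hpf were too low to test and have no point.

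The other members too low to test were alpha rows with few reads. The row itga11b stood at 5.06 and 3.88 normalized units in het 2 and het 3 of the 15-somite stage and at 1.83 in hom a, with the other 3 libraries at the floor. At 24 hpf its heterozygous libraries spanned 59.6% to 131% and its homozygous ones 63.3% to 277%. The row itga2 stood at 1.88 units in het 1 and 3.25 in hom 1 at 24 hpf, with the other 4 libraries at the floor. ITGA2 (2 of 2) stood at 82.4% to 145% in the heterozygous and 25.7% to 127% in the homozygous libraries at the 15-somite stage, and at 78.6% to 127% and 58.9% to 94.0% at 24 hpf. None of these 3 rows had separate genotypes at either stage.

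By subunit class, 1 of 17 alpha genes and 1 of 12 beta genes fell at the 15-somite stage, beside 3.73% of all genes tested. Their medians were -0.03 and -0.07. At 24 hpf 2 of 17 alpha genes and 0 of 12 beta genes fell, beside 0.343% of all genes tested, with medians of -0.07 and 0.01. The classes were not tested against each other. All homozygous libraries lay below all heterozygous ones in 2 of the 29 genes at the 15-somite stage and above them in 4, where the shares over all genes tested were 15.7% and 13.5%. At 24 hpf the counts were 3 and 1, where the shares were 6.52% and 6.34%. The 95% interval of the difference lay inside a 2-fold change in either direction for 23 of the 29 genes at the 15-somite stage and 25 at 24 hpf, beside 84.6% and 90.9% of all genes tested.

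Library het 1 of the 15-somite stage was the lowest heterozygous library for 20 of the 29 genes, and het 1 of 24 hpf for 7. The mean over the 29 genes stood at -0.20, -0.02 and 0.22 in het 1, 2 and 3 of the 15-somite stage and between -0.20 and -0.15 in the homozygous libraries, so it did not separate the genotypes there. At 24 hpf it stood between -0.05 and 0.03 in the heterozygous libraries and at -0.09, -0.31 and -0.32 in hom 1 to hom 3. All 3 homozygous libraries thus lay below the heterozygous ones in the mean over the 29 genes at 24 hpf. Without the 3 genes that fell at a stage, the mean over the other 26 stood at 0.11, -0.10 and -0.10 in hom 1 to hom 3. The heterozygous libraries stood between -0.03 and 0.02, with homozygous ones on both sides. Those 3 genes were picked by these same values, so their removal is no test.

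The effect of genotype was compared between the stages by a limma interaction for the 28 genes tested at both. The stages also differed in incubation temperature, and stage and temperature cannot be told apart. None passed (adjusted p 0.221 to 0.997), where 3.73% of the 17717 genes tested did, and 1 had an unadjusted p below 0.05. The difference between stages was 0.34 (SE 0.25, adjusted p = 0.504) for itga10 and 0.92 (SE 0.59, adjusted p = 0.437) for ITGB2.

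Ligands and adaptors of integrins were read as lists of 61 and 71 symbols. At the 15-somite stage 48 ligand genes were tested, of which 3 fell and 0 rose, where 3.73% of all genes tested fell and 0.977% rose, with a median of -0.02. The fibrinogen genes fgg and fgb, which encode blood clotting proteins bound by alpha IIb beta 3 and by alpha M beta 2, stood at -2.07 (SE 0.33, adjusted p = 0.0205) and -0.78 (SE 0.14, adjusted p = 0.0291). The gene egfl7, an endothelial matrix protein reported to bind alpha v beta 3, fell by 0.97 (SE 0.08, adjusted p = 0.00285). Without het 2, het 3 or hom a the adjusted p of fgg was 0.0597 to 0.0832, and without het 1, het 2, het 3 or hom a that of fgb was 0.0634 to 0.0993, whereas egfl7 passed without each library in turn. The fibronectin genes fn1 and fn1b stood at -0.18 (SE 0.11, adjusted p = 0.380) and 0.17 (SE 0.10, adjusted p = 0.389).

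Of 51 adaptor genes 2 fell and 1 rose at the 15-somite stage, counts near the shares of all genes (3.73% and 0.977%), with a median of 0.06. The kindlin gene FERMT1, known from epidermis, and flna, the gene of an actin crosslinker that binds beta tails, fell by 0.38 (SE 0.07, adjusted p = 0.0340) and 0.41 (SE 0.08, adjusted p = 0.0342). The gene git2a, which encodes a paxillin-binding regulator of Arf proteins, rose by 0.48 (SE 0.10, adjusted p = 0.0456). Whichever library was left out, neither FERMT1 nor git2a passed (adjusted p 0.0550 to 0.122 and 0.0631 to 0.151), and flna did not pass without het 2, het 3, hom 2, hom a or hom b (0.0561 to 0.119). Of 7 epidermis markers, 4 fell at that stage and 0 at 24 hpf, beside 3.73% and 0.343% of all genes tested. Their part in the value of FERMT1 was not tested.

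At 24 hpf 0 of 50 ligand genes passed by limma, 3 were lower and 9 higher at an unadjusted p below 0.05, beside 4.05% and 3.18% of all genes tested, and the median was 0.06. Of 53 adaptor genes 1 fell and 0 rose, beside 0.343% and 0.0474% of all genes tested, with a median of -0.01. It was dab2, an endocytic adaptor that binds integrin beta tails and a venous marker in zebrafish, which fell by 1.14 (SE 0.09, adjusted p = 0.00447) and also passed without each library in turn. At the 15-somite stage dab2 stood at -0.65 (SE 0.19, adjusted p = 0.110). The fibrinogen and fibronectin genes did not pass at 24 hpf, with fgg at -0.05 (SE 0.24), fgb at -0.03 (SE 0.19), fn1 at 0.20 (SE 0.07, adjusted p = 0.624) and fn1b at -0.04 (SE 0.09).

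**Figure D4:**
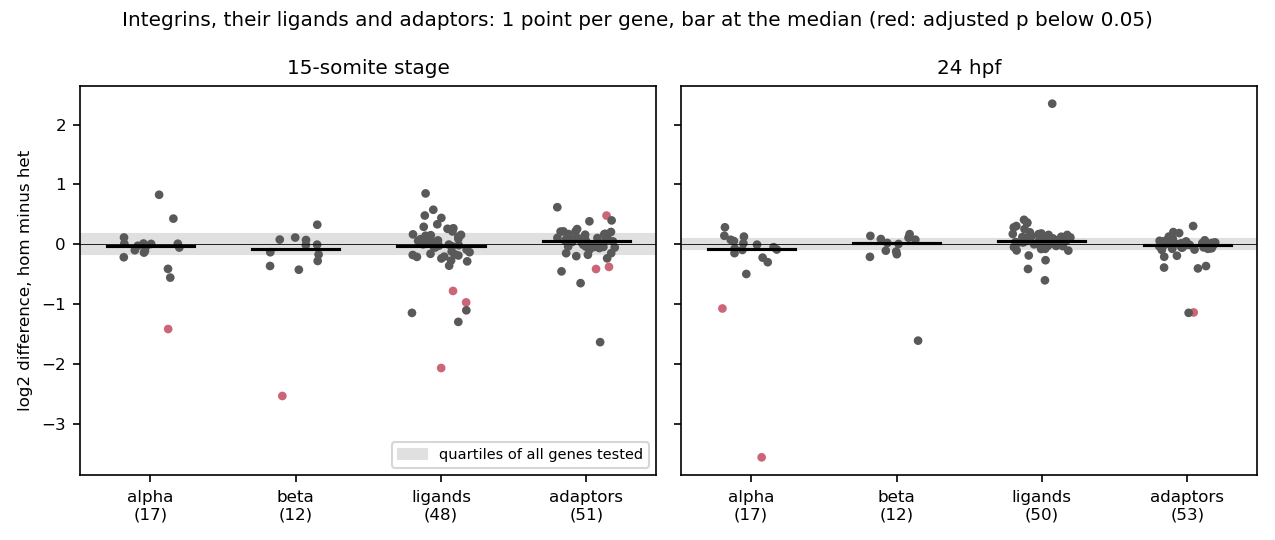
Each point is the log2 difference, homozygous minus heterozygous, of 1 gene tested, grouped as alpha subunits, beta subunits, ligands and adaptors (number tested in brackets); black bars are medians, the grey band spans the quartiles of all genes tested, and red points passed the adjusted p of 0.05. Medians lie between -0.07 and 0.06 in all 4 groups at both stages, and the genes that passed are few and mostly lower.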

How the data were processed

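RNA from whole zebrafish embryos was sequenced in 12 libraries, grouped by genotype and stage from the labels. The authors deposited 1 table of log2 values per stage. Per the submitters' processing notes the build was Zv9 and the tools included DESeq; how reads were aligned and counted, and whether by strand, is "not given in the sources used here". From the values, the deposited log2 numbers were floored at 1 before taking logs and then centred on the median of their row. Only 43.8% to 57.1% of low values were whole reads within 0.001 read, so no count test was run.

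The binary step of the stored numbers showed in which class a row's median had lain (below 4, 4 to 16, 16 to 256, or higher). Simulated tables had the right class in 95.0% and 95.2% of rows. In the deposited tables, the floor showed for some rows that the median lay below 16. Of these the step alone placed 4.00% at 16 or above at the 15-somite stage and 8.27% at 24 hpf. Such rows were classed by the floor instead. Rows at 16 or above were tested with limma 3.58.1 in R 4.3.3, homozygous against heterozygous within a stage, with a prior spread for each class. On tables simulated with known changes the test recovered 86.7% of 4-fold and 63.9% of 2-fold changes at the 15-somite stage (18662 rows), and 89.8% and 73.2% at 24 hpf (19183 rows). Of the calls made on these tables, 11 of 158 and 12 of 171 were of genes simulated without a change. The p-values measure the spread between pools of embryos. No library was left out and 0 value columns were unused.

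The members, gene lists and tests were chosen with earlier results of these data known. Members that passed, those with the 4 largest differences at a stage, and those known from endothelium, platelets or leukocytes are given by library. Alternatives were another prior, other filters on level, other scalings, all libraries in 1 fit, a replicate block and each library left out.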

Additional observations from a re-analysis of the deposited data

Results flagged for a closer look

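The effect of genotype differed between stages by the limma interaction in 2 of 47 ligand genes (4.26%) and 2 of 51 adaptor genes (3.92%), beside 3.73% of all genes tested and 0 of 28 integrin genes. For the fibrinogen gene fgg the difference was -2.07 at the 15-somite stage and -0.05 at 24 hpf, a change of 2.02 (SE 0.44, adjusted p = 0.0292). For the actin crosslinker gene flna it was -0.41 and 0.20, a change of 0.62 (SE 0.15, adjusted p = 0.0483). For git2a it was 0.48 and -0.08, a change of -0.55 (SE 0.12, adjusted p = 0.0305). For cdh1, the gene of E-cadherin, a ligand of alpha E in mammals and also on the list of epidermis markers, it was -0.24 and 0.12, a change of 0.35 (SE 0.08, adjusted p = 0.0271). Each of these genes had 3 libraries per genotype and stage. Within a stage cdh1 passed at neither (adjusted p = 0.098 and 0.687 by limma). The 15-somite calls of fgg, flna and git2a were lost when certain single libraries were left out, as given above.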

How the results depend on the processing

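At the 15-somite stage, 1 prior spread for all genes gave 0 integrin genes lower (itga10 adjusted p = 0.0536, ITGB2 0.0664), 1 ligand or adaptor lower and 0 higher in place of 5 and 1, and 250 lower and 52 higher of all genes in place of 688 and 180. All 12 libraries in 1 fit gave 12 ligands or adaptors lower, and 1239 and 769 of all genes. Testing the highest level class alone left 1 integrin gene lower, as ITGB2 is not in it. No filter gave 0 ligands or adaptors higher and 111 of all genes higher, quantile normalization 2 and 347 (beside 816 lower), and a level class from values at or above the row median, chosen after seeing the data, 0 ligands or adaptors higher.

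At 24 hpf, 1 integrin gene remained lower with all 12 libraries in 1 fit, in which ITGAE is not tested, in the highest level class alone, with 1 prior spread (ITGAE adjusted p = 0.168), without a filter (0.0549) and with the other level class (0.0706). Of all genes, 1 prior spread gave 37 lower and 4 higher in place of 65 and 9, and the highest level class alone gave 39 lower.

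With 1 library left out, integrin genes lower numbered 0 to 2 at the earlier stage and 1 to 2 at 24 hpf, and 0 were higher. Ligands and adaptors lower numbered 1 to 4 and 1 to 1, with 0 higher. All genes lower numbered 134 to 523 and 23 to 45, and higher 27 to 104 and 0 to 8.

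The replicate block at 24 hpf gave 2 integrin genes lower, and 32 lower and 4 higher of all genes. The labels do not say whether same-numbered libraries came from the same cross. The correlations of their deviations were 0.12, 0.01 and 0.004. The 0.12 of het 1 with hom 1 was the largest of all pairs, and het 2 correlated best with hom 3 (0.09). With so few libraries these correlations cannot decide whether a cross was shared. No paired analysis was possible at the 15-somite stage because 2 homozygous columns share a name. Of 89 differences of named genes, 33 changed sign in an alternative, 29 of these only with a library left out. None of the 33 passed as reported or in the alternative that turned it, and each was at most 0.17 in size as reported. The cause of these shifts was not tested.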

Other observations

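Some integrin partners outside the genes that passed had separate genotypes, and are named after their values were seen. At the 15-somite stage 11 of 48 ligand genes were separate and lower and 4 separate and higher. For 51 adaptor genes these counts were 6 and 9, beside 15.7% and 13.5% of all genes tested. At 24 hpf they were 5 and 9 of 50 ligand genes and 3 and 2 of 53 adaptor genes, beside 6.52% and 6.34%. PARVG, the gene of the leukocyte parvin, stood at -1.63 (SE 0.40, adjusted p = 0.0652) at the 15-somite stage and at -1.15 (SE 0.23, adjusted p = 0.176) at 24 hpf, with all 3 homozygous libraries below the heterozygous ones at both. The vitronectin genes vtnb and vtna, whose products bind alpha v beta 3, stood at -1.30 (SE 0.30, adjusted p = 0.0556) and -1.10 (SE 0.32, adjusted p = 0.105) at the 15-somite stage, and at 0.11 (SE 0.27) and 0.10 (SE 0.44) at 24 hpf. The third fibrinogen gene, fga, stood at -1.15 (SE 0.27, adjusted p = 0.0601) and 0.13 (SE 0.20).

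The von Willebrand factor gene vwf, a ligand of alpha IIb beta 3 made by endothelium and platelets in mammals, stood higher in all 3 homozygous libraries at 24 hpf, at 2.35 (SE 0.38, 5.09-fold, adjusted p = 0.0723). At the 15-somite stage it was too low to test and its libraries overlapped. None of these differences passed in the fit reported for its stage. With all 12 libraries in 1 fit PARVG, vtnb and fga passed at the 15-somite stage (adjusted p 0.0104, 0.0161 and 0.0129). Of the 15-somite alternatives, vtnb and fga also passed with quantile normalization (0.0287 and 0.0209). PARVG passed without het 2 (0.0152), and fga without hom b (0.035) and in the highest level class alone (0.0436).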
